A study of Sus scrofa with 12 samples.

Results

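Mesendoderm transcription factors were followed in pig induced pluripotent stem (iPS) cells as a set of 8 genes named by symbol, of 24358 genes in each expression table. The genes were TBXT, EOMES, GSC, MIXL1, SOX17, FOXA2, GATA4 and GATA6, and each matched 1 row, under the same Ensembl identifier, in both tables. The question was whether Activin A raised these genes above cells given SB431542 and above untreated knock-in cells, and which of them stayed at 0.

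RNA-seq libraries came from 4 groups of 3. WT PC-iPS cells are unedited pig iPS cells made from pericytes, grown in LCDMV medium on feeder cells. NANOG tdTomato knock-in PC-iPS cells carry a tdTomato reporter and a puromycin resistance gene at NANOG, were selected with puromycin, sorted for tdTomato and grown in the same medium. The Activin A and SB431542 groups are knock-in cells in T1 medium, which is LCDMV without LIF. The 9 knock-in libraries therefore share the reporter, and no library came from T1 medium alone. Each knock-in line is a mixed culture, in which the insertion may differ from cell to cell or be missing. To limit feeder carry-over, RNA was taken only from cells still in suspension after 1 h on a plate. The labels give no dose, time or feeder state for the treated libraries, and do not say that libraries of a group are separate cultures, so p-values measure the spread between these libraries only.

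Activin A is a ligand of the TGF-β family that binds type II and type I (ALK4) receptors and acts through phosphorylated SMAD2 and SMAD3 with SMAD4. SB431542 blocks the kinase of the type I receptors ALK4, ALK5 and ALK7. In the mammalian gastrula, Nodal signalling through the same SMADs turns on EOMES, MIXL1, GSC and TBXT in the primitive streak, and higher signalling favours FOXA2 and SOX17 in definitive endoderm. GATA4 and GATA6 are zinc finger factors of endoderm, heart and the hypoblast, the extraembryonic endoderm of the blastocyst. The same SMAD pathway also sustains NANOG in primed pluripotent stem cells of several mammals.

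Values are FPKM, fragments per kilobase of exon scaled to the mapped fragments of the library, which are per length and can be compared between genes. Total depth is unknown, because read counts were not used here. Sums of FPKM per library ran from 364241 to 390320, and 15339 to 15827 genes per library were above 0. Relative depth, estimated from the steps between low values with 1 set for knock-in number 1, was 0.565 to 0.634 in WT and 0.731 to 1 in the 9 knock-in libraries. Zeros are therefore less telling in WT. Of 12 housekeeping genes, 9 were found and none of them was at 0 in any library. The knock-in libraries numbered 2 stood apart in the simple-epithelium keratin KRT8, at 428 FPKM untreated, 334 with Activin A and 835 with SB431542, against 35.3 to 200.1 in the 6 libraries numbered 1 or 3. Number 3 stood apart in the collagen gene COL3A1, at 23.2 FPKM untreated and 42.9 with Activin A, against 0.771 to 7.47 in numbers 1 and 2 of these groups. GATA6 is given with and without number 2, and the pathway targets likewise for Activin A against SB431542 only. Number 3 was not left out of both groups in this way. Against untreated cells, the targets were not tested without number 2. Among the markers of the labelled cell type, SOX2 was at 43.4 ± 3.67 FPKM in WT and 66.3 ± 2.06 in untreated knock-in cells (SD, n = 3), whereas DPPA2 and ZFP42 were listed at 0 in all 12 libraries. POU5F1 had no row matched by symbol.

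GATA6 was the only member expressed at a level above 0.2 FPKM, and it differed from the other 7 in every library. Its FPKM was 8.98, 6.65 and 6.32 in WT, 18.8, 12.5 and 15.7 in untreated knock-in cells, 22.8, 18.0 and 21.2 with Activin A, and 15.0, 7.37 and 11.0 with SB431542, for numbers 1, 2 and 3 in turn. These values lay at the 69.5th to 88.2nd percentile of all genes in their libraries. The lowest GATA6 value, 6.32, was 33.8 times the highest value of any other member, 0.187 for TBXT in untreated knock-in number 2. Over the other 7 members, 44 of 84 values were exactly 0, 40 were above 0 and 7 reached 0.1 FPKM.

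**Figure D1:**
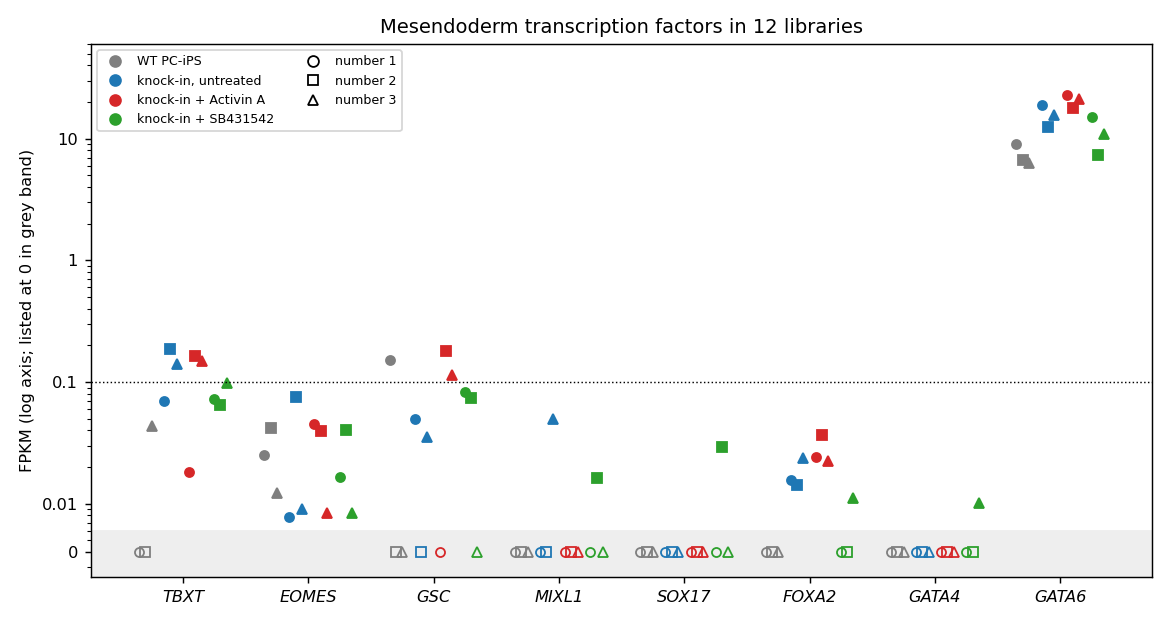
FPKM of the 8 members (log axis) in each of 12 libraries, coloured by group and shaped by replicate number, with open symbols in the grey band for values listed at 0 and a dotted line at 0.1 FPKM. GATA6 lies between 6.32 and 22.8, and all other members lie at or below 0.187.

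TBXT (brachyury), the T-box factor of the primitive streak and nascent mesoderm, was low in every group. It was 0, 0 and 0.0433 FPKM in WT, 0.0698, 0.187 and 0.141 in untreated knock-in cells, 0.0183, 0.163 and 0.148 with Activin A and 0.0718, 0.0650 and 0.0982 with SB431542. The Activin A libraries included the lowest knock-in value, in number 1, and values close to the highest, and overlapped both other knock-in groups. TBXT passed the filter on low values (at least 0.1 FPKM in 3 of 6 libraries) only in Activin A against untreated knock-in, where the difference in mean log2(FPKM + 1) was -0.03 (SE 0.08, 95% interval -0.22 to 0.16, limma adjusted p = 1.00). All 3 untreated knock-in libraries were above all 3 WT libraries (exact two-sided permutation p = 0.1, the smallest that 3 against 3 allows). Non-overlap in that direction was found in 19% of the 14014 genes that passed the filter, and the WT libraries were the shallowest. The log2(FPKM + 1) difference was 0.16 with no filter (limma adjusted p = 0.11), and with a pseudocount of 0.01 as well, an alternative chosen after seeing the data, it was 2.93 (adjusted p = 0.091).

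EOMES, the T-box factor acting with SMAD2 and SMAD3 at the start of mesendoderm formation, was above 0 in all 12 libraries but never above 0.0746 FPKM. It was 0.0251, 0.0415 and 0.0123 in WT, 0.00783, 0.0746 and 0.00897 in untreated knock-in cells, 0.0451, 0.0398 and 0.00838 with Activin A and 0.0165, 0.0407 and 0.00836 with SB431542. All groups overlapped, and number 3 of each knock-in group lay between 0.00836 and 0.00897. After scaling by relative depth, the 12 values were 1 to 6.97 times the smallest, and 11 of them lay within 0.1 of a whole multiple. The same count was 1 of 10 values above 0 for TBXT and 3 of 7 for GSC, so whole steps did not describe those members. Each count includes the gene's smallest value, which is 1 times itself by construction. How many values would lie this close without steps was not tested.

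GSC (goosecoid), a homeobox factor of the organizer and anterior streak, was 0.150, 0 and 0 FPKM in WT, 0.04999, 0 and 0.0356 in untreated knock-in cells, 0, 0.180 and 0.115 with Activin A and 0.0824, 0.0743 and 0 with SB431542. Every group held at least 1 library at 0, and the highest WT value was above 2 of 3 Activin A values. GSC overlaps the lncRNA gene LOC106504549 in RefSeq, and reads of the pair may not have been told apart. The exact two-sided permutation p for GSC was 0.5 for Activin A against SB431542 and 0.4 against untreated knock-in cells. MIXL1, a paired-type homeobox factor of the streak, was listed at 0 in 10 of 12 libraries and had 0.0497 FPKM in untreated knock-in number 3 and 0.0163 in SB431542 number 2. It was at 0 in all 3 Activin A libraries.

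Of the endoderm factors, SOX17 and GATA4 were each listed at 0 in 11 of 12 libraries. SOX17, an HMG-box factor of definitive and extraembryonic endoderm, had 0.0293 FPKM in SB431542 number 2. GATA4 had 0.0102 FPKM in SB431542 number 3. Both of these single values came from cells given the inhibitor, and both genes were at 0 with Activin A, in untreated knock-in cells and in WT.

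FOXA2, the forkhead pioneer factor of endoderm and axial mesoderm, was the only low member whose values were separated between the treatments. It was 0.0242, 0.0366 and 0.0223 FPKM with Activin A, 0, 0 and 0.0111 with SB431542, 0.0156, 0.0143 and 0.0239 in untreated knock-in cells and 0, 0 and 0 in WT. The 3 Activin A values were above the 3 SB431542 values (exact two-sided permutation p = 0.1, the smallest possible), and so were the untreated knock-in values above SB431542 (p = 0.1) and above WT (p = 0.1, same exact test). The Activin A and untreated knock-in values overlapped (exact p = 0.2). In the genes that passed the filter, non-overlap in the same direction was found in 9.19% for Activin A above SB431542, in 4.27% for SB431542 below untreated knock-in and in 19% for knock-in above WT. FOXA2 itself was below the filter everywhere. With no filter and a pseudocount of 0.01, FOXA2 was 1.54 higher on the log2 scale with Activin A than with SB431542 (limma adjusted p = 0.37). Scaled by relative depth, its values above 0 ran from 1 to 3.44 times the smallest, and 5 of 7, counting the smallest itself, lay within 0.1 of a whole multiple.

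Counted over the 7 low members, values at 0 made up 16 of 21 in WT, 9 of 21 in untreated knock-in cells, 10 of 21 with Activin A and 9 of 21 with SB431542. Their summed level was 0.0415 to 0.176 FPKM in WT, 0.143 to 0.276 in untreated knock-in cells, 0.0876 to 0.419 with Activin A and 0.128 to 0.225 with SB431542, and these ranges overlap. With no filter on low values, none of the 7 was called in any of the 4 comparisons. None was above 0.187 FPKM, too low to reach the fold threshold on the scale of the main fit, so this outcome decides nothing. Their lowest limma adjusted p in that fit was 0.11, for TBXT in knock-in against WT. Genes called higher and lower there were 3 and 2 for Activin A against SB431542, and 157 and 42 for knock-in against WT. No gene was called for either treatment against untreated cells.

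GATA6, annotated by RefSeq on Sscrofa11.1 at chr6:107282709-107314725, overlaps the protein-coding gene LOC100525229 there, and the strand setting of the FPKM step is not given in the sources used here. The group means were 7.32 ± 1.45 FPKM in WT, 11.14 ± 3.84 with SB431542, 15.7 ± 3.17 in untreated knock-in cells and 20.6 ± 2.45 with Activin A (SD, n = 3). Neighbouring groups in this order overlapped, in each of the 3 steps. In a bulk library, more cells with GATA6 and more GATA6 RNA per cell cannot be told apart.

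Between the treatments, the 3 Activin A values of GATA6 (18.0 to 22.8 FPKM) were all above the 3 SB431542 values (7.37 to 15.0). The difference in mean log2(FPKM + 1) was 0.88 (SE 0.23, 95% interval 0.32 to 1.44). It did not pass the call rule, an absolute log2 difference of 1 or more at a limma p of 0.05 or less after Benjamini-Hochberg adjustment over all genes tested. Its adjusted p from limma was 0.21. GATA6 was the only 1 of the 8 members that passed the filter in this comparison, and by this rule it was not called, against 0.0571% of 13999 genes called higher and 0.0357% called lower. The exact two-sided permutation p was 0.1, and 9.19% of genes were separated in the same direction. Libraries with the same number deviated together across genes, so the fit was repeated with the number as a block, which gave GATA6 an adjusted p of 0.045 in limma with the same difference (SE 0.13). The fold threshold still kept it uncalled. In that fit 1.66% of genes were higher with Activin A at an adjusted p of at most 0.05, and 0.521% were called higher and 0.186% lower. Within numbers 1, 2 and 3, Activin A over SB431542 was 1.51, 2.44 and 1.92-fold in FPKM. Leaving number 2 out of both groups gave a difference of 0.73 (limma adjusted p = 0.38).

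Against untreated knock-in cells, GATA6 was 0.39 higher with Activin A (SE 0.16, 95% interval 0.01 to 0.77, limma adjusted p = 1.00) and 0.49 lower with SB431542 (log2 difference -0.49, SE 0.25, 95% interval -1.10 to 0.12, limma adjusted p = 0.99). Neither difference passed the test, and the groups overlapped in both cases (exact two-sided permutation p = 0.2 each). No gene was called by limma in either comparison (0% of 13945 and of 13983 genes), and 601 (4.31%) and 631 (4.51%) had an unadjusted p under 0.05. With the block, 22 genes (0.158%) were called higher and 5 (0.0359%) lower with Activin A, and 2 (0.0143%) higher and 7 (0.0501%) lower with SB431542, none of them a member. Treatment, loss of LIF and the table of origin change together in these comparisons and cannot be told apart, and whether feeder state changes with them is not known from the labels. Leaving number 2 out of both groups gave 0.34 for Activin A and -0.39 for SB431542 (limma adjusted p = 1.00 for each). The comparisons share libraries and are not independent of each other.

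In all 3 numbers GATA6 ran in the order SB431542, untreated, Activin A from low to high. The same order in all 3 numbers was found for 766 of 13711 genes (5.59%), and the opposite order for 705 (5.14%).

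**Figure D2:**
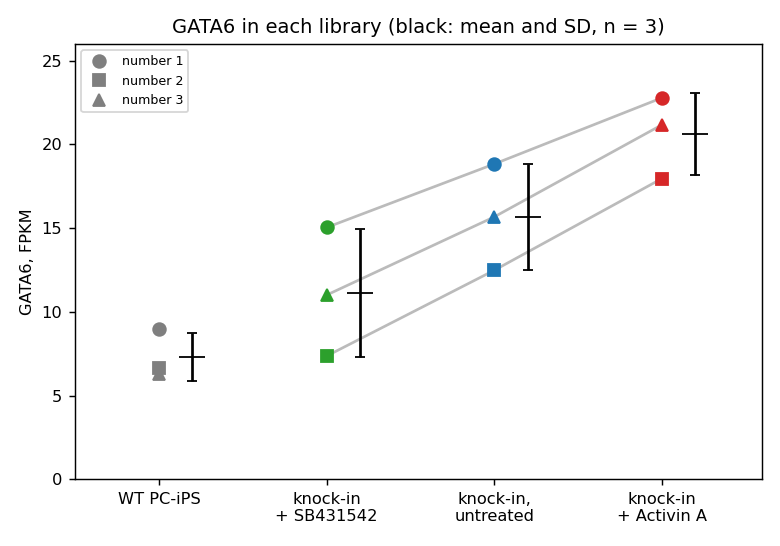
GATA6 in FPKM (linear axis from 0) by group, 1 symbol per library, with same-numbered knock-in libraries joined and the mean and SD (n = 3) in black. Each joined line climbs from SB431542 through untreated to Activin A, and the groups overlap with their neighbours.

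Untreated knock-in cells had more GATA6 than WT, 15.7 ± 3.17 against 7.32 ± 1.45 FPKM, with no overlap (12.5 the lowest knock-in value, 8.98 the highest WT value). Non-overlap in this direction was found in 19% of genes. The difference on the log2(FPKM + 1) scale was 0.999 (SE 0.19, 95% interval 0.56 to 1.44, limma adjusted p = 0.029), so it passed the p threshold and lay just under the fold threshold of 1. With a pseudocount of 0.1 the difference was 1.09 (limma adjusted p = 0.027) and GATA6 was called. Leaving out 1 library took the limma adjusted p above the threshold in 4 of 6 cases, with 0.95 (adjusted p = 0.072) without WT number 2, 0.86 (0.10) without knock-in number 1, 1.14 (0.051) without knock-in number 2 and 0.99 (0.064) without knock-in number 3. With no filter the adjusted p was 0.052. Called in this comparison were 1.61% of 14014 genes as higher and 0.706% as lower, and 4.88% passed on adjusted p alone in that direction. Markers of pericytes, fibroblasts and feeder cells moved with this difference. All 18 listed markers were found and none was at 0 in every library, their summed level was 45.7 to 61.9 FPKM in WT and 410 to 557 in knock-in cells, and 7 of 16 tested were called higher. Among them were the smooth muscle cytoskeletal genes TAGLN (20.9 ± 5.73 against 403 ± 90.3 FPKM) and ACTA2, and the pericyte receptor PDGFRB (2.32 ± 0.797 against 9.28 ± 1.84). TAGLN alone made up 299 to 457 FPKM of the sum in knock-in cells. Of the 16 tested, 14 had a log2 difference above 0 and 2 below, with a median of 1.35 beside -0.00 over all genes. The 2 below 0 were the collagen gene COL1A1, at 1.13 ± 0.314 FPKM in WT and 0.622 ± 0.241 in knock-in cells, and the pericyte and endothelial gene MCAM, at 11.08 ± 1.90 and 10.8 ± 1.06. The matrix gene POSTN was at 0.110, 0.252 and 0 in WT and at 0 in all 3 untreated knock-in libraries. The proteoglycan gene LUM, like POSTN below the filter, was 0.0927, 0.102 and 0.0173 in WT and 0.0108, 0.0225 and 0.0189 in untreated knock-in cells. The part of these markers in the GATA6 difference was not tested. The summed level of this list was 407 to 503 FPKM with Activin A and 392 to 513 with SB431542, and these ranges overlap. Most of it was TAGLN, and single markers were separated between the treatments, as GATA6 was. COL1A2 was 11.2 to 21.3 FPKM with Activin A and 3.24 to 4.77 with SB431542, and ACTA2 was 7.52 to 9.28 and 18.7 to 20.6. Their part in the GATA6 difference between the treatments was not tested.

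Known targets of the pathway were read in the same libraries. NANOG, the pluripotency homeobox gene into which tdTomato was inserted, was 109, 195 and 157 FPKM with Activin A and 11.8, 27.2 and 11.8 with SB431542 (log2 difference 3.18, SE 0.35, limma adjusted p = 0.042). It is annotated at more than 1 locus with shared sequence, so its level is uncertain. SMAD7, the inhibitory SMAD induced as feedback, rose from 1.75, 1.11 and 1.37 FPKM with SB431542 to 7.28, 8.07 and 6.67 with Activin A (log2 difference 1.80, SE 0.14, limma adjusted p = 0.024). LEFTY2, a secreted Nodal antagonist, was listed at 0 in all 3 SB431542 libraries and was 1.37, 0.783 and 1.20 FPKM with Activin A (limma adjusted p = 0.042), against 0.204, 0.0663 and 0.167 in untreated knock-in cells. ID1, a helix-loop-helix inhibitor best known as a BMP target, was 18.0, 24.5 and 13.5 FPKM with Activin A and 4.31, 15.3 and 4.34 with SB431542 (log2 difference 1.31, SE 0.46, limma adjusted p = 0.32). It did not pass the test, whereas the paper reports ID1 as higher with Activin A than with SB431542 by RNA-seq and RT-PCR. With the replicate block NANOG, SMAD7 and LEFTY2 were called as well (limma adjusted p = 0.011, 0.016 and 0.025). Leaving out any 1 library ended the SMAD7 call (limma adjusted p = 0.054 to 0.15), with a log2 difference of 1.70 to 1.90. In the same way the NANOG call held only without SB431542 number 2 (adjusted p = 0.033), and the highest adjusted p was 0.21, without SB431542 number 1, with a log2 difference of 2.99 to 3.56. LEFTY2 was not called without any 1 SB431542 library (adjusted p = 0.11 to 0.21) and was below the filter without any 1 Activin A library. NANOG also lost its call with no filter (adjusted p = 0.10), a filter of 1 FPKM (0.057), a pseudocount of 0.01 (0.063), the last with no filter (0.062) and no variance trend (0.052), and LEFTY2 with no filter (0.068) and no trend (0.052). Without number 2 in both groups, NANOG was 3.37 higher with Activin A (limma adjusted p = 0.052), SMAD7 1.64 (0.14) and ID1 1.64 (0.15), and LEFTY2 was below the filter. Against untreated knock-in cells, Activin A gave log2 differences of 1.05 for NANOG, 1.34 for SMAD7 and 1.36 for ID1, none called (limma adjusted p = 0.96, 0.057 and 0.75). All 3 were called with the replicate block (limma adjusted p = 0.010, 0.022 and 0.022). LEFTY2 was 0.88 higher than in untreated knock-in cells (limma adjusted p = 0.31, or 0.031 with the block). It was not called in either fit, since it lay under the fold threshold.

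**Figure D3:**
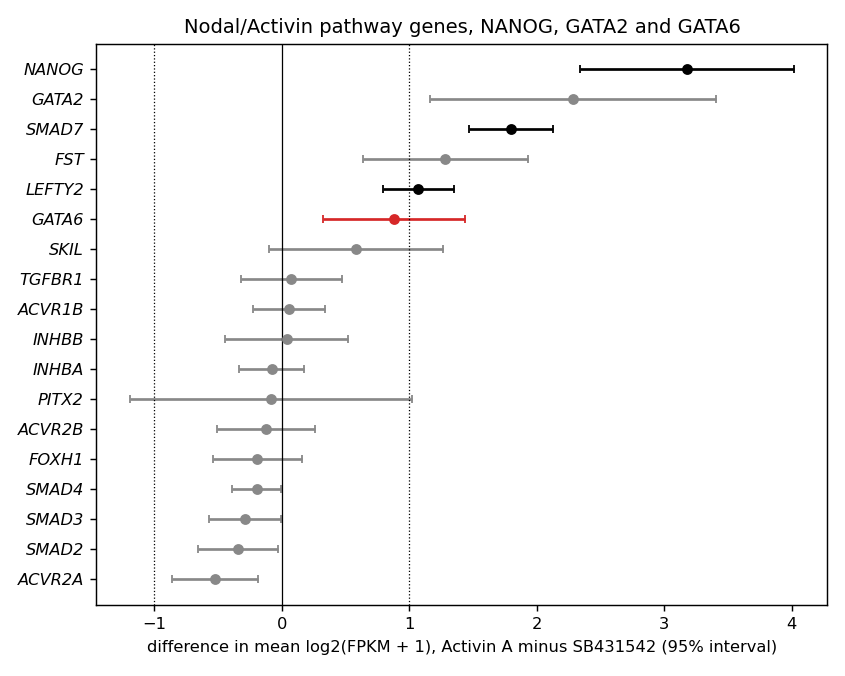
Difference in mean log2(FPKM + 1), Activin A minus SB431542, with its 95% interval, for the Nodal/Activin pathway genes tested and for NANOG, GATA2 and GATA6 (n = 3 per group, dotted lines at the fold threshold). Black marks called genes, red marks GATA6 at 0.88, and grey marks the rest.

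Of 23 listed genes of the Nodal/Activin pathway, 20 were found and 15 tested, with 2 called higher with Activin A than with SB431542 (LEFTY2 and SMAD7) and none lower. Their median log2 difference was -0.08, beside -0.00 over all genes tested. The type I receptor gene TGFBR1 was at 31.8 ± 3.67 FPKM with Activin A and 30.4 ± 6.14 with SB431542. The ligand gene NODAL was at 0.0428 ± 0.00895 and 0.0800 ± 0.0416 FPKM (SD, n = 3) and was below the filter, and the Nodal antagonist gene CER1 was listed at 0 in all 12 libraries. With the block, FST was called as well. FST encodes follistatin, which binds and neutralizes activin, and was 130, 81.8 and 121 FPKM with Activin A and 59.8, 30.7 and 47.1 with SB431542 (log2 difference 1.28, limma adjusted p = 0.16, or 0.012 with the block). Without number 2 in both groups the FST difference was 1.23 (limma adjusted p = 0.16).

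Of 29 other genes of primitive streak and mesoderm, 28 were found, 4 were at 0 in all libraries (MSGN1, CDX2, CDX4 and HOXB1) and 16 were tested between the treatments. None was called, and the median log2 difference was 0.12, with 12 of the 16 differences above 0 and 4 below. For Activin A against untreated knock-in cells, 14 of 18 tested were above 0 and 4 below, with a median of 0.09 and none called. The most abundant were OTX2, a head and epiblast homeobox gene, at 58.2 ± 6.21 FPKM with Activin A and 63.7 ± 6.12 with SB431542, and WNT3A, a Wnt ligand of the streak, at 34.3 ± 13.7 and 37.3 ± 24.7. With the block 1 gene, GATA2, was called. GATA2, a GATA factor of blood progenitors and trophectoderm, was 26.3, 38.9 and 21.7 FPKM with Activin A, 2.15, 10.8 and 4.74 with SB431542, 5.09, 13.2 and 7.41 in untreated knock-in cells and 3.96, 2.17 and 1.97 in WT. The Activin A values were above all others. The log2 difference from SB431542 was 2.28 (SE 0.47, limma adjusted p = 0.16, or 0.034 with the block, and 2.55 with an adjusted p of 0.16 without number 2), and that from untreated cells was 1.70 (adjusted p = 0.55, or 0.032 with the block). For SNAI1 with Activin A, the log2 difference from SB431542 was 1.00 (SE 0.32, limma adjusted p = 0.29, or 0.059 with the block). EVX1, below the filter, was 0.0676, 0.284 and 0.139 FPKM with Activin A and 0, 0.0788 and 0 with SB431542. It was at 0 in all untreated knock-in and WT libraries. WNT3, a Wnt ligand of the early streak, was called higher in untreated knock-in cells than in WT (22.8 ± 8.46 against 4.26 ± 2.09 FPKM, log2 difference 2.18, limma adjusted p = 0.021).

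**Figure D4:**
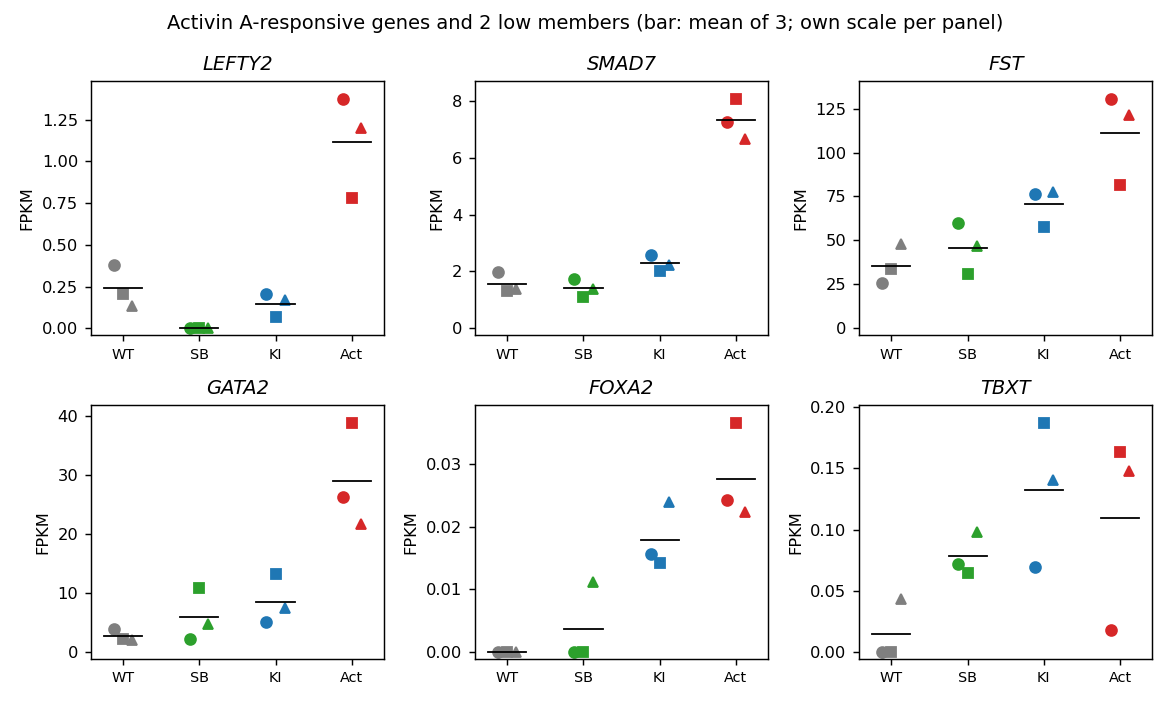
FPKM per library of LEFTY2, SMAD7, FST and GATA2 and of the members FOXA2 and TBXT in WT, SB431542 (SB), untreated knock-in (KI) and Activin A (Act) libraries, with the mean of 3 as a bar and a separate linear scale in each panel. All 3 Activin A values of GATA2 exceed the other 9, whereas the FOXA2 panel ends below 0.04 and the TBXT panel at about 0.2 FPKM.

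No definitive endoderm gene was called between the treatments. Of 18 listed, 18 were found, 3 were at 0 throughout (GATA5, CER1 and TTR) and 9 were tested, with a median log2 difference of -0.04. Of these differences, 4 were above 0 and 5 below. The tight-junction gene CLDN6 was at 95.7 ± 23.7 FPKM with Activin A and 105 ± 30.5 with SB431542, and the chemokine receptor gene CXCR4 at 44.8 ± 14.5 and 29.4 ± 5.05 (log2 difference 0.56, limma adjusted p = 0.39). KIT was separated between the treatments, as GATA6 was, at 4.78, 7.17 and 4.69 FPKM with Activin A and 2.17, 2.87 and 2.55 with SB431542. Its log2 difference was 0.87 (SE 0.17, limma adjusted p = 0.14, or 0.035 with the block). HHEX was separated the other way (log2 difference -0.30, limma adjusted p = 0.40, or 0.17 with the block). No gene of this list was called in the other comparisons.

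GATA6 is also a hypoblast gene, so the list of hypoblast and extraembryonic endoderm was read beside it. Of 18 genes, 17 were found and 13 tested between the treatments, with none called and a median log2 difference of -0.07, where 12 of 13 differences were below 0. The most abundant were SPARC, a matrix glycoprotein gene, at 332 ± 24.4 FPKM with Activin A and 333 ± 19.6 with SB431542, and FGFR2, an FGF receptor gene, at 82.1 ± 8.24 and 84.4 ± 7.73. PDGFRA, the receptor gene that marks hypoblast with GATA6, was at 0.177 ± 0.0536 FPKM with Activin A and 0.190 ± 0.112 with SB431542, and SOX17 and GATA4 of the same lineage were at the levels given above. Between untreated knock-in cells and WT, 13 genes were tested and 2 were called higher, the apolipoprotein gene APOA1 (41.6 ± 15.2 against 9.42 ± 1.98 FPKM, limma adjusted p = 0.016) and the laminin gene LAMB1 (11.6 ± 6.35 against 2.71 ± 0.228, adjusted p = 0.035).

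In the remaining lists, genes called between Activin A and SB431542 stand beside 0.0571% of 13999 genes called higher and 0.0357% lower. With the block these shares were 0.521% and 0.186%. The lists were chosen with earlier results known, so their rates were not compared with these shares. Of 9 tested pluripotency genes NANOG alone was called, and with the block the RNA-binding protein gene LIN28A was called lower (119 ± 70.9 against 339 ± 153 FPKM, limma adjusted p = 0.27, or 0.015 with the block). Of 16 tested genes of pericytes, fibroblasts and feeders, ACTA2 was called lower (8.32 ± 0.887 against 19.4 ± 1.07 FPKM, log2 difference -1.13, limma adjusted p = 0.035). With the block, the collagen genes COL1A2 (15.1 ± 5.45 against 4.22 ± 0.852 FPKM) and COL3A1 (19.0 ± 20.7 against 0.988 ± 1.52) were called higher. None of 9 tested neural ectoderm genes was called. The most abundant were the intermediate filament gene NES and the zinc finger gene ZIC1. None of 7 tested trophectoderm genes was called, with the keratin genes KRT8 and KRT18 the most abundant by the mean over 12 libraries. The place of KRT18 rests on number 2, since with the treatments it was 50.3 and 68.8 FPKM there and 4.79 to 12.1 in numbers 1 and 3, where TFAP2A, a trophectoderm AP-2 factor gene, was 12.4 to 18.8. With the block the last list gave GATA2 and TFAP2C higher and KRT8 lower. LIN28A, TFAP2C, KRT8 and LAMB1 were highest in number 2 within each knock-in group, and were not tested without it in both groups. Between untreated knock-in cells and WT, these lists gave NANOG, LIN28A, KRT8, TEAD4 and TFAP2A as called higher, together with CNN1, DCN, TWIST1 and TWIST2 of the pericyte and fibroblast list. The neural gene PAX6 (2.94 ± 1.81 against 16.6 ± 9.16 FPKM, limma adjusted p = 0.040) was called lower, as was the housekeeping gene B2M.

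By Pearson's correlation of log2(FPKM + 1) over the 12 libraries, the genes most like GATA6 among 12540 compared were NDUFV1, a subunit gene of mitochondrial complex I (r = 0.947), MPP1, a membrane-associated guanylate kinase gene (r = 0.941), and ITIH5, of the inter-α-trypsin inhibitor heavy chain family (r = 0.917). The 12 points share 4 groups, with WT low in each gene. NDUFV1 ran from 17.8 FPKM in WT number 2 to 24.1 with Activin A in number 1. No other member reached 0.1 FPKM in 6 libraries, so no likeness was computed for them.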

How the data were processed

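The authors trimmed reads with Trim Galore and aligned them to Ssc11.1, and deposited FPKM per gene from StringTie in 2 tables of 6 libraries. The submitters' processing notes name HISAT2 2.0.4 and StringTie 1.3.3. The deposited values are scaled within each library only. The count test of the paper's methods was replaced by limma 3.58.1 (R 4.3.3) with a variance trend on log2(FPKM + 1), two-sided, for genes with at least 0.1 FPKM in 3 of 6 libraries. At the same fold and adjusted p thresholds, the paper's count test called many more genes between Activin A and SB431542. A gene not called here is therefore not shown to be unchanged. A fold change on this scale understates the change of low genes. The fit was tested on simulated data, with a log2 difference of 2 in either direction given to 200 genes of higher expression and no block. Recovery of smaller differences or of low genes, and the block fit, were not tested in this way. Both tables hold the same identifiers, so groups of different tables were compared, with the limits given beside the values. Coordinates are RefSeq's (Sscrofa11.1). NANOG had no symbol in the tables and was matched through a reference table of gene names.

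The sample titles number libraries 1 to 3, and the study numbers its knock-in lines in the same way, but the labels do not tie a treated library to a line. Over 13891 genes, same-numbered libraries deviated together in all 3 comparisons among knock-in groups (r = 0.40 to 0.66), and the fits were repeated with the number as a block.

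The members and gene lists were chosen with earlier results of these data known. Named are all members, called genes of each list or the 2 most abundant, NANOG, LEFTY2, SMAD7 and ID1, and the 3 genes most like GATA6. FST, GATA2, SNAI1, EVX1, KIT, HHEX, PDGFRA, NODAL, SOX2, DPPA2, ZFP42, LIN28A, COL1A1, COL1A2, COL3A1, LUM, MCAM, POSTN and TFAP2C, genes at 0 and KRT8 were singled out after their values were seen. Alternatives were other pseudocounts, filters, scalings, no trend, the block, all libraries in 1 fit and each library left out. One called gene of the lists is not reported here.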

Additional observations from a re-analysis of the deposited data

How the results depend on the processing

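The direction of GATA6 was the same in every alternative run, in all 4 comparisons, and it was not called in Activin A against SB431542, Activin A against untreated or SB431542 against untreated in any. Without 1 library its log2 difference ran from 0.63 to 1.10, from 0.24 to 0.52 and from -0.72 to -0.25 in these, and from 0.86 to 1.14 for knock-in against WT. In the last it became called with a pseudocount of 0.1 (1.09) or 0.01 (1.09), as TPM (1.09), without WT number 1 (1.14), and with no filter and a pseudocount of 0.01 (1.09). Of the low members, TBXT in Activin A against untreated ranged from -0.0707 to 0.0305 without 1 library, reversing to 0.0043 without knock-in number 2 and to 0.0305 without Activin A number 1. In knock-in against WT, with no filter and a pseudocount of 0.01, with or without the block, EOMES reversed to -0.17 and GSC to 0.26. The cause was not tested. Depth is unknown, so no detection limit can be given for genes at 0.

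Counts of called genes moved more. For Activin A against SB431542 (8 higher, 5 lower) they were 5 and 3 with a pseudocount of 0.01, 3 and 2 with no filter, 2 and 3 with a filter of 1 FPKM, 3 higher without the trend, 73 and 26 with the replicate block, 20 and 8 in 1 fit over 12 libraries, 3 higher with no filter and a pseudocount of 0.01, 45 and 21 when the block was added to that, 0 and 1 without number 2, and 13 higher by adjusted p alone. Without 1 library they were 0 to 4 and 0 to 1. For Activin A against untreated (0 and 0) they were 0 to 1 in each direction without 1 library, 1 and 2 with a filter of 1 FPKM or without the trend, 22 and 5 with the block, 3 higher in 1 fit, 20 and 6 with no filter, pseudocount 0.01 and block, and 1 lower with a pseudocount of 0.1 or 0.01 or as TPM. For SB431542 against untreated (0 and 0, also without any 1 library) they were 1 and 1 with a pseudocount of 0.1 or 0.01, 2 and 7 with the block and 2 and 6 with no filter, pseudocount 0.01 and block. For knock-in against WT (225 and 99) they were 346 and 192 with a pseudocount of 0.1, 181 lower with 0.01, 42 lower with no filter, 156 lower as TPM, 684 and 328 by adjusted p alone, and 117 to 303 and 28 to 143 without 1 library. Here the numbers do not pair the samples (r = -0.02 to 0.10), and the replicate block gave 60 lower, or 85 and 18 with no filter and a pseudocount of 0.01. With no filter and a pseudocount of 0.01 the block ended the GATA6 call in this comparison (limma adjusted p = 0.036 without it and 0.052 with it). It changed no other call of a member, with GATA6 at a limma adjusted p of 0.13 and 0.14 for Activin A and SB431542 against untreated cells.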
